A study of Mus musculus with 60 samples.

Results

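The 112 genes described here had a lower mean level in SPIO nanoparticle exposed mouse lung than in sham control lung at both late times of the study, 96 and 168 h after the exposure. They were chosen by these differences. Each gene was read from 1 probe set, a group of short array probes combined into 1 value. That probe set had a single gene symbol and the highest mean over the 60 arrays among those of the gene. Of 18193 genes, 11182 had a mean log2 value of at least 6, and of these 117 had a SPIO minus CON difference of group means of -0.5 or lower at both times. The rule leaves out 9 named genes, 5 of which met these limits, and 112 genes remained. The differences at 96 and 168 h are therefore descriptions without a test, and tests were made only in the mice of 0, 6, 24 and 48 h, whose arrays the rule's differences did not use.

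Superparamagnetic iron oxide (SPIO) nanoparticles were inhaled by male Balb/c mice through the nose for 4 h, at a labelled total aerosol mass of 365 µg. Sham controls (CON) breathed the humidified carrier gas of helium, oxygen and filtered air without particles for the same time. The lung was taken from 5 SPIO mice and 5 CON mice at each of 0, 6, 24, 48, 96 and 168 h, which gave 12 groups of different animals, with 1 array of the right diaphragmatic lobe per mouse. Mice of both 96 h groups had also been in plethysmography chambers, and mice of both 168 h groups had lived in metabolism cages on a liquid diet, so that time and housing cannot be told apart. Whole lobe RNA was measured, so fewer cells of a type and less RNA per cell cannot be told apart either.

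Array medians ran from 5.53 to 5.64 on the log2 scale, and interquartile ranges of the arrays from 3.7 to 4.18. The alveolar type 2 cell list (surfactant protein genes and others, 7 of 8 measured) averaged 13 to 13.3 in SPIO arrays and 12.9 to 13.3 in CON arrays. In 1 of the 60 arrays, CON 0 h replicate 1, Xist was at 11.9 against 6.02 or lower elsewhere and Alb at 14 against 11.3 or lower, although all mice were labelled male. In another, SPIO 24 h replicate 3, the Y-linked Eif2s3y was at 5.98 against 7.7 or higher elsewhere. The counts of genes called lower at 0 and 24 h are given with and without these arrays below.

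Many of the 112 genes encode regulators of gene expression: sequence-specific transcription factors, chromatin proteins that open, close or mark nucleosomes, and proteins that splice, export and degrade RNA. A smaller set works at the cell surface, where gap junctions pass ions and small molecules between neighbouring cells, tight junctions seal the alveolar epithelium, and hyaluronan receptors bind the long sugar polymer of the lung matrix. The role groups used below were assigned after the members were known, and the share of these roles among all genes was not counted.

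Gjc1 encodes the connexin Cx45, a gap junction channel protein of smooth muscle, pericytes and other contractile cells. At 96 h its log2 levels, listed by replicate here and below, were 9.06, 8.83, 7.93, 8.84 and 9.15 in the SPIO lungs, against 9.89, 9.91, 9.54, 10.15 and 10.11 in the CON lungs. At 168 h they were 8.16, 8.97, 8.95, 8.99 and 8.85 in SPIO, against 9.96, 9.66, 10.02, 9.70 and 9.66 in CON. Every SPIO lung lay below every CON lung at both times, and the lowest values, SPIO 96 h replicate 3 and SPIO 168 h replicate 1, stood well below the other SPIO lungs of their group. The SPIO level was 0.447 times the CON level at 96 h and 0.495 times at 168 h, on the linear scale. In the earlier mice, Gjc1 was lower at 24 h, at 8.82 ± 0.52 in SPIO and 9.77 ± 0.09 in CON (SD, n = 5 each; difference -0.95, SE 0.20, limma adjusted p = 0.00047), and the groups did not overlap. It was also lower at 48 h, by -0.66 (SE 0.20, limma adjusted p = 0.019), a call that was lost under 5 of 22 alternative settings. At 0 and 6 h the differences were -0.62 and -0.69 and did not pass (limma adjusted p = 0.064 and 0.068). These values are of 1 probe set. Another probe set of Gjc1 was at -0.16 and 0.00 at 96 and 168 h. It was called at 0 h only (-0.33, limma adjusted p = 0.04).

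Layn encodes layilin, a membrane receptor for hyaluronan with a lectin-like domain. At 96 h its log2 levels were 6.27, 6.09, 5.54, 6.27 and 6.08 in SPIO lungs, against 6.87, 6.85, 6.71, 7.20 and 7.32 in CON lungs. At 168 h they were 5.81, 5.90, 5.81, 6.14 and 5.73 in SPIO, against 7.11, 7.10, 7.19, 6.96 and 6.60 in CON. The groups did not overlap at either time, and the SPIO values at 168 h lay close together (SD 0.16, n = 5). Layn was a dim gene, with a mean of 6.59 over all arrays, so its ratios may be compressed. It was lower at 24 h (6.28 ± 0.45 in SPIO and 7.12 ± 0.26 in CON; SD, n = 5 each; difference -0.84, SE 0.18, limma adjusted p = 0.00078) and at 48 h (difference -0.74, SE 0.18, limma adjusted p = 0.0055). At 0 h the difference of -0.60 just missed the threshold (limma adjusted p = 0.051), and at 6 h it was -0.37. These values are of 1 probe set. Another probe set of Layn, with a mean of 5.53, was at 0.24 and -0.03 at 96 and 168 h and was called at no earlier time.

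Pdap1 encodes a small acidic protein that binds the A chain of platelet-derived growth factor (PDGF). At 96 h its log2 levels were 9.38, 8.99, 8.36, 9.17 and 9.30 in SPIO lungs, against 9.91, 9.79, 9.69, 10.22 and 10.19 in CON lungs. At 168 h they were 8.14, 9.09, 8.72, 9.08 and 8.75 in SPIO, against 10.04, 9.99, 10.05, 9.67 and 9.73 in CON. No SPIO lung reached the lowest CON lung at either time, and the lowest SPIO lungs were again replicate 3 at 96 h and replicate 1 at 168 h. Pdap1 passed at 3 of the 4 earlier times, with differences of -0.76 at 6 h (SE 0.19, limma adjusted p = 0.022), -0.86 at 24 h (SE 0.19, adjusted p = 0.00081) and -0.58 at 48 h (SE 0.19, adjusted p = 0.031). Under the alternatives the call at 24 h held in all 22 settings, while that at 6 h was lost in 6 and that at 48 h in 11. These calls are of 1 probe set. Another probe set of Pdap1 was at -0.03, 0.10 and 0.07 at 6, 24 and 48 h and was not called.

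Other genes of the same families were set beside these 3. Of 17 measured connexins and pannexins, among which Gjc1 was a member, 5 had a mean of at least 6, so that most of the list could not have met the rule. Of the other 4, Gja1 (Cx43), the main gap junction gene of many tissues, differed by 0.11 at 96 h and 0.21 at 168 h, Gja4 by 0.14 and -0.02, Panx1 by 0.15 and -0.02, and Gjb6, a connexin of epithelia, by -0.27 and -0.54. At 24 h, where 3.66% of all genes were called lower and 20.3% higher, 1 of the 17 was lower, Gjc1 itself, and 2 were higher, Gjb5 and Panx1. Of 22 measured genes for hyaluronan receptors, synthases and hyaluronidases, Layn and Cemip2, a cell surface hyaluronidase, were members, and 10 of the 22 had a mean of at least 6. The median of the 22 was 0.05 at 96 h and -0.07 at 168 h, and Cd44, a major hyaluronan receptor, was at -0.15 and -0.18. At 24 h, against the same shares of all genes, 2 of the 22 were lower and 6 higher, among which Vcan, a matrix proteoglycan that binds hyaluronan, differed by 1.39. Of 13 measured genes of PDGF signalling, with medians of 0.02 and -0.06, Pdap1 was a member. Pdgfa differed by 0.10 at 96 h and 0.19 at 168 h, and the receptor genes Pdgfra and Pdgfrb by -0.09 and 0.02 at 96 h. At 24 h, 2 of the 13 were lower, Pdap1 and Pdgfd, and 5 were higher. The difference of any of these lists from all genes was not tested.

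**Figure D1:**
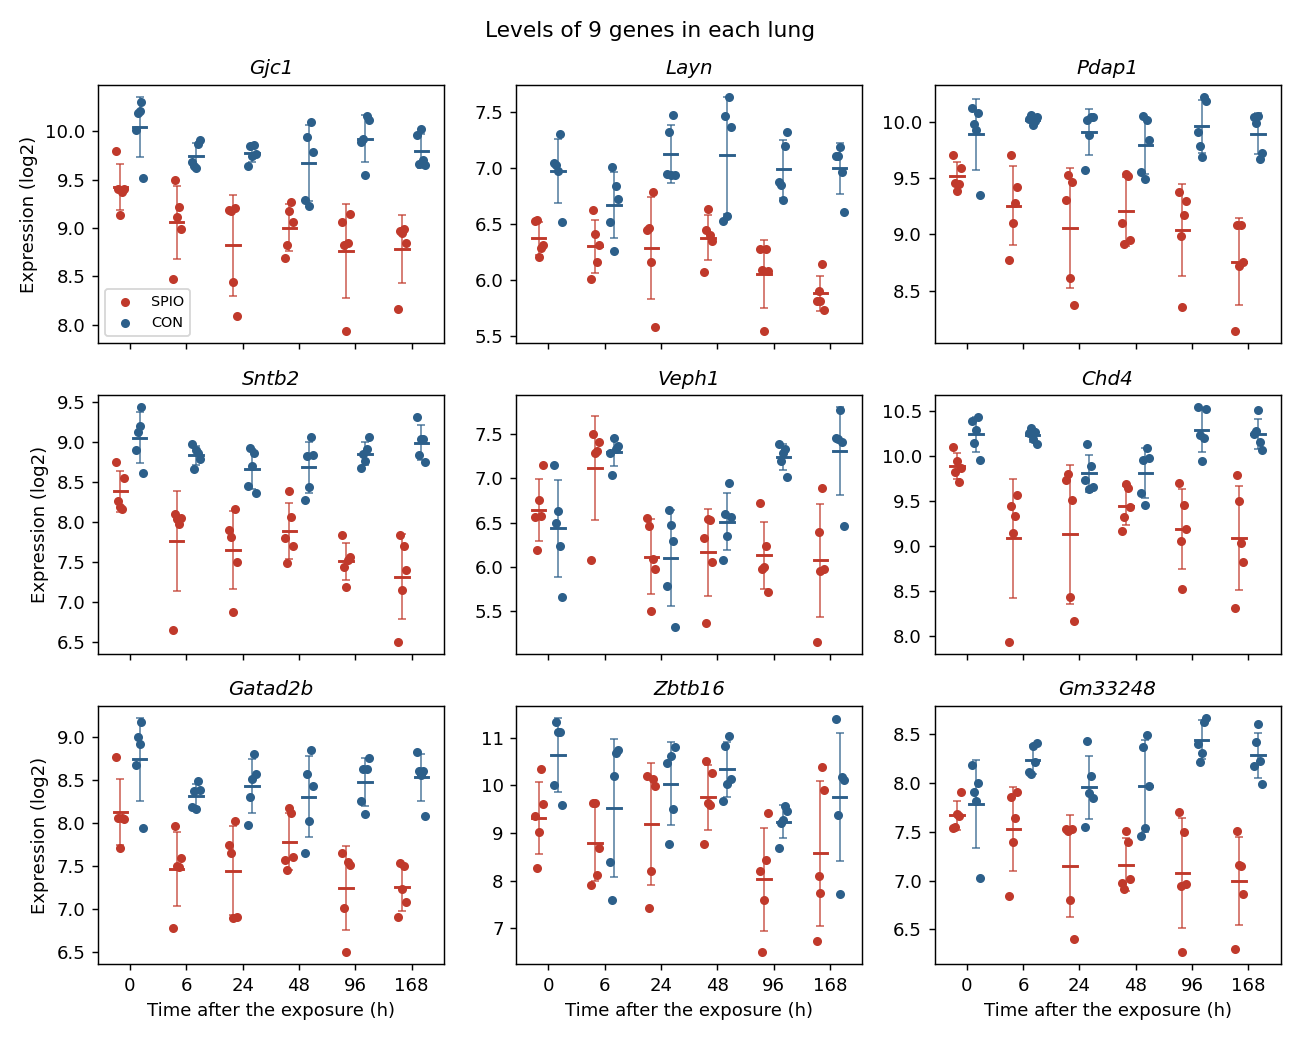
Log2 level of 9 of the 112 genes in each lung, by time after the exposure in h (5 SPIO mice in red on the left, 5 CON mice in blue on the right; each point is 1 mouse, horizontal bars are means and vertical bars SDs). The SPIO and CON points of Gjc1, Layn, Pdap1, Sntb2, Chd4, Gatad2b and Gm33248 do not overlap at 96 or 168 h, while those of Zbtb16 overlap at both times and those of Veph1 at 168 h.

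The mean of the 2 late differences was most negative in 6 other genes, from -1.50 to -1.13. Sntb2 encodes a syntrophin, an adaptor that ties signalling proteins to the dystrophin complex under the membrane. Its log2 levels at 96 h were 7.83, 7.44, 7.19, 7.53 and 7.57 in SPIO lungs, against 8.68, 8.84, 8.76, 8.91 and 9.06 in CON lungs. At 168 h they were 6.51, 7.84, 7.16, 7.71 and 7.40 in SPIO, against 9.31, 8.84, 9.03, 9.03 and 8.75 in CON. The gap between the groups at 168 h was nearly 1 log2 unit, and the SPIO mean was 0.314 times the CON mean on the linear scale, the lowest ratio of any of the 112 genes. Sntb2 was also lower at 6 h (-1.07, SE 0.22, limma adjusted p = 0.003), 24 h (-1.01, SE 0.22, adjusted p = 0.00062) and 48 h (-0.80, SE 0.22, adjusted p = 0.01). These values are of 1 probe set. The others of Sntb2 were at -0.51 and -0.68, -0.33 and -0.37, and -0.48 and -0.44 at 96 and 168 h. None of them was called at 6 or 48 h, and the last pair were lower at 24 h (-0.66 and -0.71, adjusted p = 0.00049 and 0.00077).

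Gatad2b and Chd4 encode subunits of NuRD, a complex that joins nucleosome remodelling with histone deacetylation. Gatad2b at 96 h was at 7.65, 7.01, 6.49, 7.55 and 7.51 in SPIO lungs, against 8.26, 8.63, 8.10, 8.62 and 8.76 in CON lungs. At 168 h it was at 6.90, 7.54, 7.23, 7.50 and 7.08 in SPIO, against 8.82, 8.60, 8.55, 8.60 and 8.08 in CON. The groups were apart at both times. Chd4, the ATPase of the complex, was at 9.70, 9.06, 8.53, 9.46 and 9.19 in SPIO lungs at 96 h, against 10.54, 10.23, 9.95, 10.19 and 10.52 in CON lungs. At 168 h Chd4 was at 8.31, 9.78, 9.50, 9.03 and 8.82 in SPIO, against 10.24, 10.27, 10.50, 10.15 and 10.06 in CON. Its SPIO lungs were spread over more than 1 log2 unit at both times and its CON lungs over less than 0.6. Both genes passed at 6 h, with differences of -0.86 for Gatad2b (SE 0.23, limma adjusted p = 0.049) and -1.14 for Chd4 (SE 0.24, adjusted p = 0.0053). Both passed again at 24 h, with -0.98 (SE 0.23, adjusted p = 0.0017) and -0.68 (SE 0.24, adjusted p = 0.034), and neither passed at 0 or 48 h. These values are of 1 probe set per gene, and no other probe set of Gatad2b was called at 6 or 24 h. Another probe set of Chd4 was also lower at 6 and 24 h. A further one was higher at 24 and 48 h (0.40 and 0.48, limma adjusted p = 0.0095 and 0.0044).

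Zbtb16 encodes PLZF, a zinc finger repressor that glucocorticoids induce in many tissues. At 96 h it was at 8.20, 6.49, 7.60, 8.43 and 9.42 in SPIO lungs, against 8.69, 9.21, 9.27, 9.57 and 9.46 in CON lungs. At 168 h it was at 6.74, 8.10, 7.74, 10.38 and 9.89 in SPIO, against 11.38, 9.37, 7.72, 10.18 and 10.12 in CON. The groups overlapped at both times and the values of both spread widely at 168 h (SD 1.52 in SPIO and 1.35 in CON, n = 5 each). Zbtb16 passed at none of the earlier times, although its difference at 0 h was -1.32 (SE 0.62, limma adjusted p = 0.25).

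Veph1 encodes a membrane-bound protein with a pleckstrin homology domain. At 96 h it was at 6.72, 5.97, 6.00, 6.24 and 5.72 in SPIO lungs, against 7.39, 7.20, 7.29, 7.33 and 7.01 in CON lungs. At 168 h it was at 5.15, 6.40, 5.95, 6.89 and 5.97 in SPIO, against 7.45, 7.45, 7.77, 7.41 and 6.46 in CON. The groups were apart at 96 h and overlapped at 168 h through 1 CON lung. Its earlier differences were 0.21, -0.18, 0.02 and -0.34 at 0, 6, 24 and 48 h (limma adjusted p = 0.73, 0.89, 0.98 and 0.45), and none was called.

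The predicted transcript Gm33248 was at 7.70, 6.95, 6.26, 7.50 and 6.97 in SPIO lungs at 96 h, against 8.4, 8.22, 8.30, 8.63 and 8.67 in CON lungs. At 168 h it was at 6.29, 7.51, 7.16, 7.15 and 6.87 in SPIO, against 8.18, 8.42, 8.60, 8.22 and 7.99 in CON. Its groups did not overlap, and it was also lower at 24 h (-0.81, SE 0.23, limma adjusted p = 0.0086) and 48 h (-0.81, SE 0.23, adjusted p = 0.015).

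Promoters of members were read from RefSeq windows on GRCm38.p6 that run from 250 bases before to 50 bases after the transcription start, and 92 of the 112 genes had such a window. Those of Layn, Pdap1, Gatad2b and Chd4 are shown because these genes carry the late differences described above, and Gatad2b and Chd4 act in 1 complex. Capitals mark matches, on either strand, to the GC box GGGCGG, the CCAAT box CCAAT and the antioxidant response core TGACNNNGC. The windows lie at chr9:51077045-51077344 (minus strand), chr5:145139976-145140275 (minus), chr3:90292931-90293230 (plus) and chr6:125095731-125096030 (plus), and each sequence is written 5′ to 3′.
Layn: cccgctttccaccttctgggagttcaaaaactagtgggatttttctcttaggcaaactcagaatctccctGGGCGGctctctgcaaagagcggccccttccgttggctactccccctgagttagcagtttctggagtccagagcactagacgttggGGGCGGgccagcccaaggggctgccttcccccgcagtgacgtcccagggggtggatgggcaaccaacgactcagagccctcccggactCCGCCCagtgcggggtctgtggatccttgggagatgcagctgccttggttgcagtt
Pdap1: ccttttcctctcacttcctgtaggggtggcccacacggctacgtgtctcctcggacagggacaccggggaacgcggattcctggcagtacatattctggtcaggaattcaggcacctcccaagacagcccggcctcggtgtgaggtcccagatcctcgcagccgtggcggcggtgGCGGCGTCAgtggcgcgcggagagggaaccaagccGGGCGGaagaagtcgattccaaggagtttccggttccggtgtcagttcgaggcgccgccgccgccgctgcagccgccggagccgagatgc
Gatad2b: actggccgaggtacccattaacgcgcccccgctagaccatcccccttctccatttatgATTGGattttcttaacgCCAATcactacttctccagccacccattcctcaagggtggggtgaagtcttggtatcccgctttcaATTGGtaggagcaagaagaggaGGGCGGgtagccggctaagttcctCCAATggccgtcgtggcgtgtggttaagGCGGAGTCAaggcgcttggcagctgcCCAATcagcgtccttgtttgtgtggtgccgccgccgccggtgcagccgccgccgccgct
Chd4: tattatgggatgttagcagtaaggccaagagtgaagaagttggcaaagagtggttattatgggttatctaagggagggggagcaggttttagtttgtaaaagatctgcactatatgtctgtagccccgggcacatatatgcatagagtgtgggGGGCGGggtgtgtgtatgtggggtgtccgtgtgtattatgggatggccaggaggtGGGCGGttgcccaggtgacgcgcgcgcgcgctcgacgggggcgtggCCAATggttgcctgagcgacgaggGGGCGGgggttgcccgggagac
The Layn window held 3 GC boxes, that of Pdap1 1 GC box and 1 antioxidant response core, that of Gatad2b 5 CCAAT boxes with 1 GC box and 1 antioxidant response core, and that of Chd4 3 GC boxes and 1 CCAAT box. None of the 4 windows held the TATA box TATAAA.

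Over the 92 windows the GC box was found in 69.6%, against 65.1% of the 9067 windows of genes with a mean of at least 6 and 35.9% of all 27025 windows. The CCAAT box was found in 37.0%, against 37.8% and 37.9%. The antioxidant response core was found in 19.6%, against 14.8% and 12.5%, and the E-box CACGTG in 13%, against 10.3% and 7.24%. The TATA box was found in 5.43%, against 7.09% and 14.2%, and the ETS core CCGGAAG in 10.9%, against 18.2% and 9.12%. The cAMP response element TGACGTCA and the AP-1 site TGACTCA, whose first letters both share with the antioxidant response core, were found in 2 windows each (2.17%), against 3.17% and 3.5% of the windows of genes with a mean of at least 6. The median GC content was 60.7% in the members' windows, against 61.0% in those of genes with a mean of at least 6. These are matches of letters only, and they say nothing of whether a factor is bound there.

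Averaged over the 112 genes in each lung, the SPIO lungs were highest at 0 h, with 8.82 ± 0.10, and lowest at the late times, with 8.30 ± 0.34 at 96 h and 8.32 ± 0.31 at 168 h (SD, n = 5). Between them the SPIO means were 8.50, 8.44 and 8.60 at 6, 24 and 48 h. The means of the CON groups lay between 8.97 and 9.14. The groups did not overlap at 6, 24, 96 or 168 h, the last 2 of which follow from the choice of the genes. At 96 h the 5 SPIO lungs were at 8.69, 8.18, 7.79, 8.48 and 8.33, against 9.05, 9.07, 8.96, 9.14 and 9.2 in the CON lungs. The SPIO lungs differed more among themselves than the CON lungs at 6, 24, 96 and 168 h, and a single low lung stood out at 6 h (replicate 1, at 7.88). At 24 h the lowest were replicate 5, at 7.95, and replicate 3, at 8.13, the array with low Y-linked genes.

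**Figure D2:**
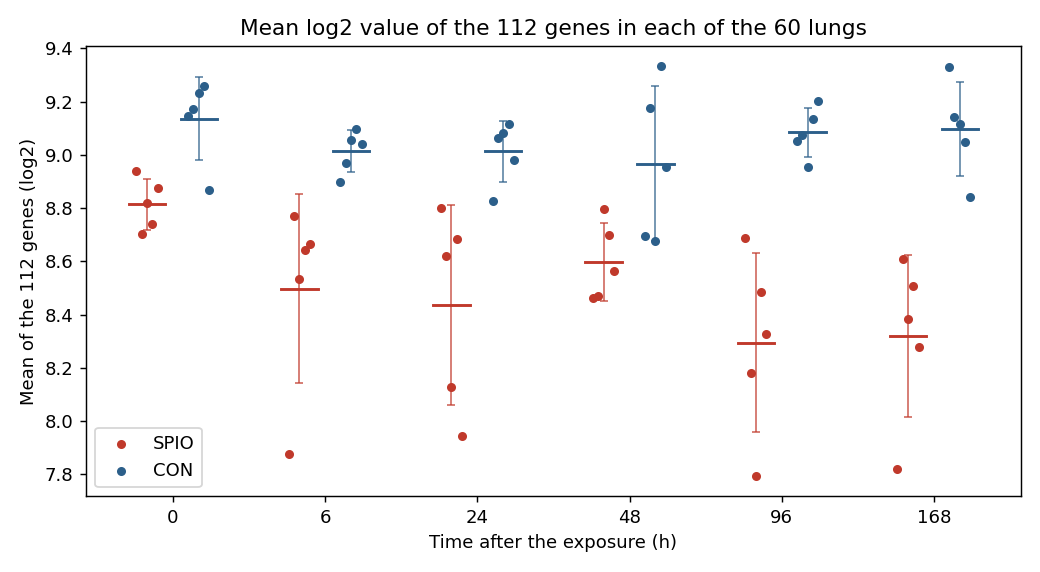
Mean log2 level of the 112 genes in each of the 60 lungs, by time after the exposure in h (SPIO in red on the left, CON in blue on the right; points are mice, horizontal bars are means and vertical bars SDs, n = 5). The SPIO lungs lie below all CON lungs of the same time at 6, 24, 96 and 168 h, and the lowest SPIO lungs are at 7.79 (96 h), 7.82 (168 h) and 7.88 (6 h).

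Most of the 112 genes were below their controls long before 96 h. The median SPIO minus CON difference of the members was -0.29, -0.56, -0.59 and -0.37 at 0, 6, 24 and 48 h, beside medians over all genes with a mean of at least 6 of 0.01, 0.04, 0.16 and 0.11. At 96 and 168 h, where the rule fixes the sign, the members' medians were -0.75 and -0.74, and the limit of -0.5 was reached by 1.68% and 2.05% of the 11182 genes. Below 0 were 104, 105, 106 and 107 of the 112 genes at 0, 6, 24 and 48 h, and 94 were below 0 at all 6 times. At 0 h, 9 members were called lower, against 1.11% of all genes tested, and 1 higher, against 2.56%. At 6 h, 27 were lower, against 0.407%, and 0 higher, against 0.759%. At 24 h, 73 were lower, against 3.66%, and 1 higher, against 20.3%. At 48 h, 29 were lower, against 1.89%, and 0 higher, against 10.7%. Beside the 2 counts of 0 from limma, 1 member was higher at 6 h and 1 at 48 h at an unadjusted p under 0.05, and the methods' test gave 0 at both times. Without CON 0 h replicate 1 the count at 0 h was 12, and without SPIO 24 h replicate 3 the count at 24 h was 51.

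Single lungs moved the counts at 0, 6, 24 and 48 h. At 0 h the count was 5 without CON replicate 3 or 4 or SPIO replicate 3 or 5. At 6 h it was 12 without SPIO replicate 1 and 14 without CON replicate 2, and at 48 h it was 13 without CON replicate 4. At 24 h it was 51 without SPIO replicate 3 and 53 without SPIO replicate 5. By the ranks alone, all 5 SPIO lungs were below all 5 CON lungs for 13 members at 0 h, against 1.13% of all genes. The like counts were 52 at 6 h (against 1.23%), 39 at 24 h (1.42%) and 16 at 48 h (1.07%). They were 68 at 96 h (1.45%) and 80 at 168 h (2.28%). The last pair of counts follow in large part from the rule.

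By the probe set used, no member was called lower at all 4 earlier times. In the limma fit over all probe sets, another probe set of Zfp800, Pkn2, Slfn5 and Malat1 was. Calls of the probe set used came at 3 of the times for 15 genes, at 2 for 28, at 1 for 37 and at none for 32. Among these 32, Rhoj, Senp1, Ccser2 and Kmt5a had early differences between -0.40 and -0.09. Both the 24 and the 48 h call were made for 27 genes. The shares of all genes with calls at several times were not counted, and the times share 1 estimate of the residual variance. The effect at 6, 24 or 48 h was also compared with that at 0 h as an interaction. At 6 h, 1 member passed, against 0.885% of all genes: Klhl29, a kelch repeat protein, was at 6.33 ± 0.53 in SPIO and 7.61 ± 0.21 in CON at 0 h, and at 6.58 ± 0.40 in SPIO and 6.08 ± 0.33 in CON at 6 h (SD, n = 5 each; difference of differences 1.78, SE 0.41, limma adjusted p = 0.021). At 24 h, 1 passed, against 1.18%: Far1, which makes fatty alcohols in the peroxisome, differed by -1.29 at 24 h and -0.20 at 0 h (difference of differences -1.09, SE 0.29, limma adjusted p = 0.045). At 48 h limma called 0, against 0.61%, with 6 at an unadjusted p under 0.05. Both interaction calls were lost with the replicate block, and that of Far1 under several other settings.

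**Figure D3:**
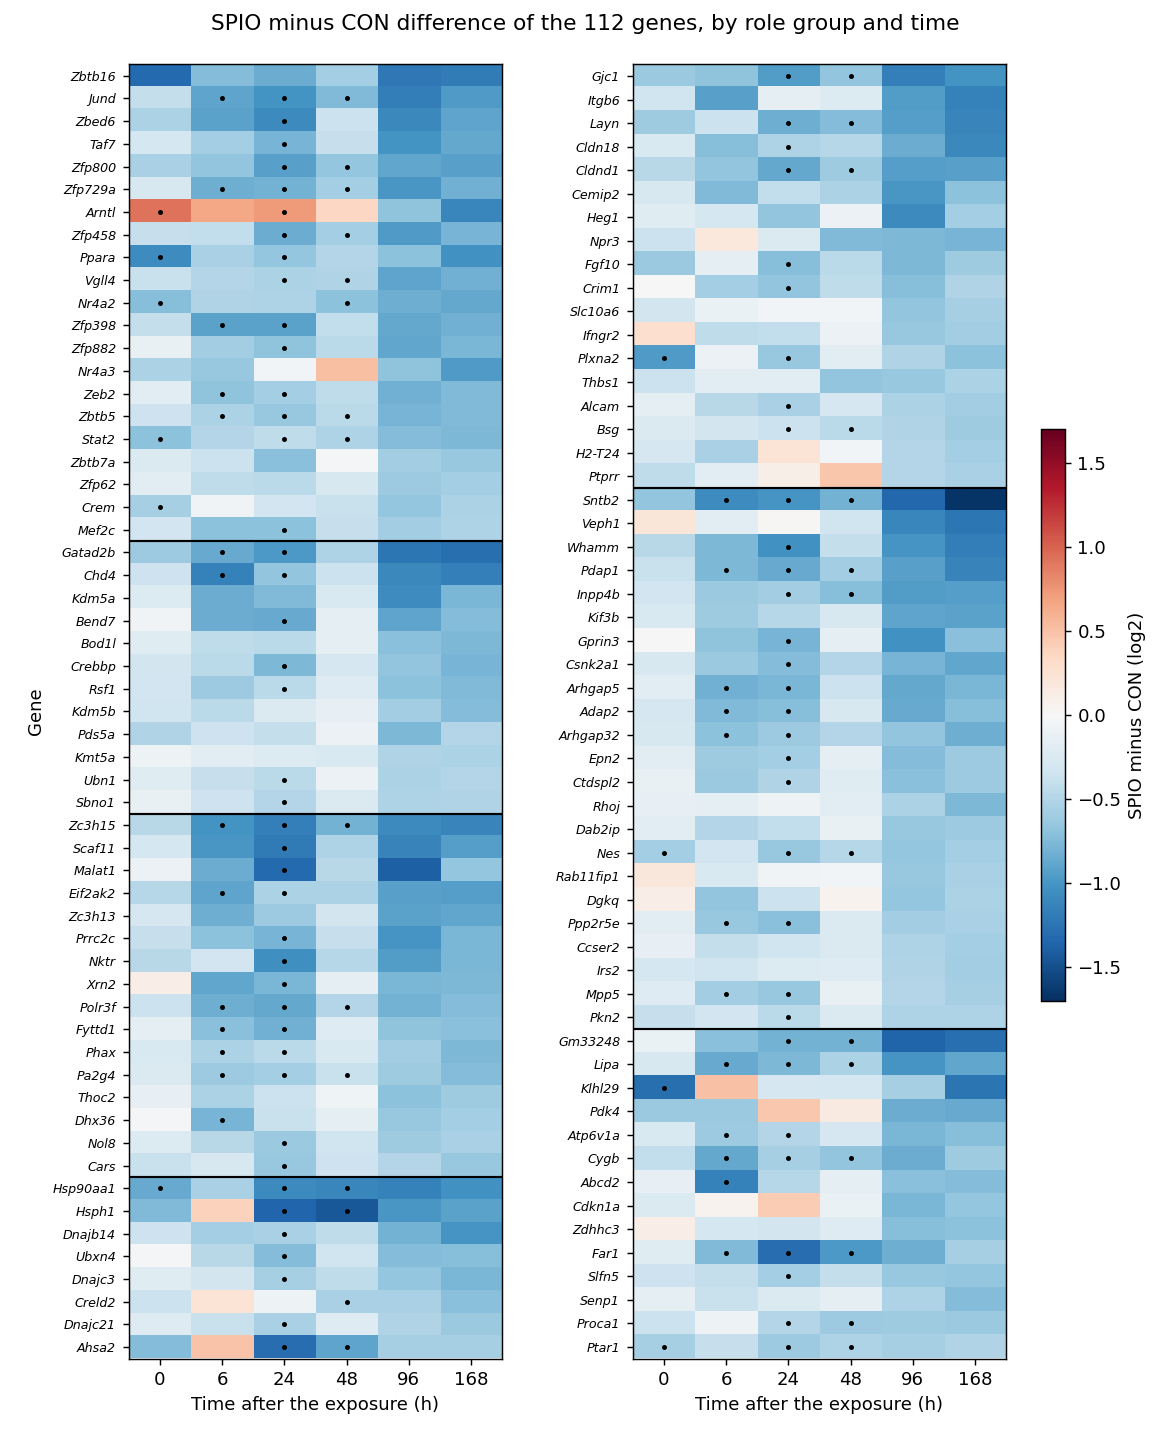
SPIO minus CON difference (log2, blue lower and red higher in SPIO) of each of the 112 genes at 6 times after the exposure in h, grouped by role between black lines. The groups run down the left and then the right column as transcription factors, chromatin proteins, RNA processing, chaperones and endoplasmic reticulum, junctions and receptors, signalling and cytoskeleton, and metabolism and others. Dots mark calls at 0 to 48 h (limma, adjusted p under 0.05), of which 73 lower and 1 higher fall at 24 h, and 96 and 168 h were not tested.

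Transcription factors and cofactors made up 21 members, with median differences of -0.39, -0.58, -0.69, -0.45, -0.84 and -0.82 from 0 to 168 h. Of the 21, 14 were lower at 24 h and 8 at 48 h, beside 73 and 29 of the 112 members and 3.66% and 1.89% of all genes. The counts of this and the later role groups are to be read beside those of the members as a whole. Differences between role groups were not tested. Calls are those of the probe set used. For some of the members another probe set was called higher, as given below. For some, another was called lower at a time at which the one used did not pass. Jund, a subunit of the AP-1 factor, had the smallest p of the members at 24 h, and at 6 h only Polr3f, described below, had a p as small. Jund averaged 11.60 ± 0.31 in SPIO and 12.50 ± 0.20 in CON at 6 h (SD, n = 5 each; difference -0.90, SE 0.15, limma adjusted p = 0.0002) and differed by -1.01 at 24 h (SE 0.15, adjusted p = 8.8e-06) and -0.75 at 48 h (SE 0.15, adjusted p = 0.00084). These calls held under all 22 alternatives. By symbol, 11 members (9.82%) were zinc finger genes of the Zfp, Zbtb and Zc3h kinds, against 2.61% of genes with a mean of at least 6. Of those counted here, Zfp729a and Zbtb5 passed at 6, 24 and 48 h, Zfp800 and Zfp458 at 24 and 48 h, Zfp398 at 6 and 24 h, and Zfp882 at 24 h. Zfp62 and the repressor gene Zbtb7a passed at no earlier time by the probe set used and differed by -0.62 and -0.60 at 96 h. Another probe set of Zfp62 was lower at 24 h (-1.28, limma adjusted p = 0.00026) and 48 h (-0.92, adjusted p = 0.015). That probe set was at -0.05 and 0.20 at 96 and 168 h. Zbed6, a repressor derived from a transposon, passed at 24 h and differed by -1.10 at 96 h.

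The other factors of the group had varied earlier courses. Stat2, which carries the type I interferon signal, was lower at 0 h (-0.69, SE 0.14, limma adjusted p = 0.0032), as were Ppara, a nuclear receptor for fatty acids (-1.06, SE 0.24, adjusted p = 0.0061), Nr4a2, an orphan nuclear receptor of the immediate-early kind (-0.73), and Crem, a cAMP-responsive factor (-0.57). Nr4a3, a close relative of Nr4a2, was at 0.51 at 48 h and at -0.69 and -0.96 at 96 and 168 h. Arntl, which encodes the core clock factor BMAL1, was the only member called higher. It averaged 7.70 ± 0.52 in SPIO and 6.77 ± 0.63 in CON at 0 h (SD, n = 5 each; difference 0.93, SE 0.27, limma adjusted p = 0.035) and differed by 0.72 at 24 h (SE 0.27, adjusted p = 0.04), against -0.68 at 96 h and -1.11 at 168 h. These 2 calls were lost under 8 and 9 of 22 alternatives. Among 18 measured clock genes, 6 were lower and 2 higher at 0 h (against 1.11% and 2.56% of all genes), Dbp being at -1.39, and 5 were lower and 1 higher at 24 h (against 3.66% and 20.3%). Their median was -0.08 at 96 h and -0.06 at 168 h. Zeb2, an E-box repressor, passed at 6 and 24 h, Taf7, a subunit of the general factor TFIID, and Mef2c at 24 h, and Vgll4, a cofactor of TEAD factors, at 24 and 48 h.

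Chromatin proteins made up 12 members, with medians of -0.71 at 96 h and -0.74 at 168 h, and 7 of the 12 were lower at 24 h and 2 at 6 h. Beside Gatad2b and Chd4 they were Kdm5a and Kdm5b, which remove methyl groups from histone H3, the acetyltransferase gene Crebbp, the remodelling and chaperone subunits Rsf1 and Ubn1, the histone H4 methyltransferase gene Kmt5a, the cohesin regulator Pds5a, and Sbno1, Bod1l and Bend7. Kdm5a differed by -1.06 at 96 h and -0.78 at 168 h, and its difference of -0.76 at 24 h just missed the threshold (SE 0.29, limma adjusted p = 0.051). Another probe set of Kdm5a was lower at 6 h (-0.60, adjusted p = 0.048) and 24 h (-0.85, adjusted p = 0.00048). Crebbp, Rsf1, Ubn1, Sbno1 and Bend7 were lower at 24 h. A list of 26 measured remodelling genes, which held Chd4 but not Gatad2b or Rsf1, had a median of -0.06 at 168 h and close to 0 at 96 h, and 2 of the 26 were lower and 6 higher at 24 h, against 3.66% and 20.3% of all genes. Pds5a was on a list of 15 measured cohesin genes, with the loader gene Nipbl left out by the rule at -1.32 and -1.46. The median of the 15 was 0.004 at 96 h and 0.002 at 168 h. At 24 h, 2 of the 15 were lower and 5 higher, against the same shares of all genes.

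RNA processing, transport and translation held 16 members, and 7, 13 and 3 of them were lower at 6, 24 and 48 h. Zc3h15, a zinc finger protein that binds RNA, was lower at 6 h (-1.02, SE 0.21, limma adjusted p = 0.0037), 24 h (-1.16, SE 0.21, adjusted p = 0.0001) and 48 h (-0.80, SE 0.21, adjusted p = 0.0083). Polr3f, a subunit of RNA polymerase III, averaged 7.30 ± 0.28 in SPIO and 8.13 ± 0.17 in CON at 6 h (SD, n = 5 each; difference -0.83, SE 0.14, adjusted p = 0.0002), and it passed at 24 and 48 h as well. Malat1, a long noncoding RNA of nuclear speckles, was at 12.57 ± 1.63 in SPIO and 13.96 ± 0.17 in CON at 96 h, and at 12.79 ± 1.45 in SPIO and 14.11 ± 0.09 in CON at 24 h (SD, n = 5 each; difference -1.32, SE 0.42, limma adjusted p = 0.018). A list of 23 measured speckle and splicing genes, which held Malat1 but not Scaf11, had a median of -0.13 at 96 h and -0.02 at 168 h.

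Lower at 24 h among the others were the splicing factor gene Scaf11, the cyclophilin gene Nktr, Prrc2c, the nuclear exonuclease gene Xrn2, the export adaptors Fyttd1 and Phax, the nucleolar Nol8, the ribosome-binding Pa2g4, the tRNA synthetase gene Cars and Eif2ak2, the kinase that senses double-stranded RNA. Scaf11 differed by -1.20 at 24 h and by -1.13 and -0.94 at 96 and 168 h. Fyttd1 differed by -0.81 at 24 h (SE 0.16, limma adjusted p = 0.0002). Eif2ak2 differed by -0.89 at 6 h (SE 0.19, adjusted p = 0.0056). The helicase gene Dhx36 passed at 6 h only. Zc3h13, of the complex that methylates adenosine in RNA, and the export subunit gene Thoc2 passed at no earlier time by the probe set used. Another probe set of Zc3h13 was lower at 6 h (-1.15, limma adjusted p = 0.0095) and 24 h (-0.84, adjusted p = 0.026).

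Chaperones and proteins of the endoplasmic reticulum were 8 members, and 7 of the 8 were lower at 24 h. Hsp90aa1, the stress-inducible cytosolic HSP90, averaged 12.61 ± 0.17 in SPIO and 13.46 ± 0.26 in CON at 0 h (SD, n = 5 each; difference -0.85, SE 0.21, limma adjusted p = 0.013). It differed by -1.08 at 24 h (SE 0.21, adjusted p = 0.0002) and -1.10 at 48 h (SE 0.21, adjusted p = 0.00037). The late differences were -1.15 and -1.03. Hsph1, which recharges HSP70, and Ahsa2, which activates HSP90, were at 0.39 and 0.49 at 6 h, where neither passed, and at -1.35 and -1.30 at 24 h, where both passed (limma adjusted p = 0.0084 and 0.00061). The CON lungs of these 2 genes varied with time as well, with Ahsa2 at 11.01 ± 0.31 at 24 h and 9.49 ± 0.48 at 96 h (SD, n = 5). The J-domain cochaperones Dnajb14, Dnajc3 and Dnajc21 and the degradation factor Ubxn4 were lower at 24 h, with differences from -0.73 to -0.55. Creld2, induced by stress of the endoplasmic reticulum, was lower at 48 h (-0.55, SE 0.19, limma adjusted p = 0.042).

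Junction, adhesion, receptor and matrix genes were 18 members, with 9 lower at 24 h and 4 at 48 h. Cldn18, the main claudin of alveolar tight junctions, averaged 11.74 ± 0.47 in SPIO and 12.59 ± 0.16 in CON at 96 h, and 11.43 ± 0.45 in SPIO and 12.52 ± 0.22 in CON at 168 h (SD, n = 5 each). It was lower at 24 h (-0.53, SE 0.20, limma adjusted p = 0.045). Itgb6, the integrin subunit that activates transforming growth factor beta in lung epithelium, was at 6.94 ± 0.36 in SPIO and 7.88 ± 0.20 in CON at 96 h (SD, n = 5 each), and its difference of -0.92 at 6 h did not pass (limma adjusted p = 0.064). Cldnd1 passed at 24 and 48 h, as did Bsg, the partner of monocarboxylate transporters. Bsg had a small difference, -0.45 at 48 h (SE 0.10, adjusted p = 0.0012). Fgf10, a mesenchymal growth factor for alveolar epithelium, was lower at 24 h (-0.72, SE 0.24, adjusted p = 0.023), and so were the adhesion gene Alcam and Crim1, a membrane protein that binds growth factors of the BMP family. Plxna2, a semaphorin receptor, was lower at 0 h (-0.96, SE 0.23, adjusted p = 0.011) and 24 h, and Cemip2 at 6 h. Called at no earlier time were Heg1, a receptor of endothelium, Npr3, the clearance receptor of natriuretic peptides, Thbs1, the interferon gamma receptor gene Ifngr2, the class I gene H2-T24, the steroid sulphate carrier gene Slc10a6 and the phosphatase gene Ptprr. H2-T24 and Ptprr were at 0.23 and 0.09 at 24 h.

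Signalling, cytoskeleton and trafficking was the widest group, with 23 members, of which 15 were lower at 24 h. Beside Sntb2 and Pdap1, the actin nucleator gene Whamm differed by -1.0 and -1.17 at 96 and 168 h, and the phosphoinositide phosphatase gene Inpp4b, which passed at 24 and 48 h, by -0.95 and -0.94. The GTPase-activating proteins Arhgap5, Arhgap32 and Adap2 were lower at both 6 and 24 h, as were the phosphatase subunit gene Ppp2r5e and Mpp5, a scaffold of epithelial polarity. By the probe set used, Gprin3, the casein kinase gene Csnk2a1, the endocytic adaptor Epn2, the phosphatase gene Ctdspl2, the kinase gene Pkn2 and Whamm passed at 24 h only. Nes, an intermediate filament gene, passed at 0, 24 and 48 h. Another probe set of Pkn2 was called lower at 0, 6, 24 and 48 h. The kinesin gene Kif3b, Dab2ip, the endothelial GTPase gene Rhoj, the insulin signalling adaptor gene Irs2, Ccser2, Rab11fip1 and the lipid kinase gene Dgkq passed at none. Rab11fip1 and Dgkq were at 0.19 and 0.11 at 0 h.

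The last 14 members serve metabolism, the lysosome and protein modification or have no clear role. Lipa, the acid lipase of the lysosome, was lower at 6 h (-0.86, SE 0.19, limma adjusted p = 0.0072), 24 and 48 h, and Atp6v1a, a subunit of the proton pump that acidifies it, at 6 and 24 h. Far1 was lower at 6 h, at 24 h (-1.29, SE 0.20, adjusted p = 2e-05) and at 48 h (-0.97, SE 0.20, adjusted p = 0.0011), and Cygb, a haem globin, at 6, 24 and 48 h. Abcd2, a carrier of fatty acids into peroxisomes, was at -1.14 at 6 h (SE 0.26, adjusted p = 0.0099) and did not pass at 0, 24 or 48 h. Klhl29 was lower at 0 h (-1.28, SE 0.29, adjusted p = 0.0069) and Ptar1, a prenyltransferase subunit, at 0 h (-0.56, SE 0.14, adjusted p = 0.017), 24 and 48 h. Proca1 passed at 24 and 48 h and Slfn5 at 24 h, and another probe set of Slfn5 was called lower at 0, 6, 24 and 48 h. Pdk4, which holds back pyruvate use, and Cdkn1a, the cell cycle inhibitor p21, were at 0.46 and 0.43 at 24 h, did not pass, and differed by -0.84 and -0.77 at 96 h. The palmitoyltransferase gene Zdhhc3 and the SUMO protease gene Senp1 passed at no earlier time.

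The limit of -0.5 divides close values. Just inside it were Pds5a (-0.7665 at 96 h and -0.5005 at 168 h), Cars (-0.5014 and -0.6402) and Mpp5 (-0.5016 and -0.5706), and just outside were Appbp2 (-0.5465 and -0.4988), Aig1 (-0.4979 and -0.5507) and Gpd2 (-0.4969 and -0.6824). With a limit of -0.4 the rule gave 184 genes, and with -0.6 it gave 71.

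Within groups the members varied together. Over the 40 arrays of 0 to 48 h, after each group's mean was subtracted, the median Pearson correlation between pairs of members was 0.553, beside 0.115 between pairs of all genes with a mean of at least 6. These values share the same arrays and are a description. It was over 0.5 for 55.8% of member pairs, beside 7.28% of all pairs. The median correlation with the other members was highest for Arhgap5 (0.774), at 0.740 for Pdap1, 0.724 for Gjc1 and 0.571 for Layn, and lowest for Arntl (0.024) and Pdk4 (0.0516). The members were also more variable than other genes, with a median SD within groups of 0.316, beside 0.161.

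For 91 of the 112 genes the array held other probe sets, 222 in all, of which 146 of 75 genes had a mean of at least 6. These come from the same mice, so at 96 and 168 h they are no independent measurement of the mice. The median difference of the 146 was -0.10, -0.02, -0.11, -0.02, -0.10 and -0.13 in the order of the times. The probe sets chosen for the same 75 genes had medians of -0.27, -0.61, -0.64, -0.37, -0.76 and -0.74. Of the 146, limma over all probe sets called 13, 13, 39 and 16 lower at 0, 6, 24 and 48 h, where 2.03%, 2.74%, 8.12% and 3.11% of the 20249 probe sets with a mean of at least 6 were lower. It called 1, 1, 17 and 12 higher, where 2.2%, 1.16%, 21.6% and 10.7% were higher. The 17 at 24 h belonged to 16 genes, and for 10 of these the probe set used was itself called lower at 24 h: Alcam, Atp6v1a, Chd4, Crebbp, Dnajb14, Epn2, Far1, Pa2g4, Sbno1 and Xrn2. For Dnajb14 the other probe set was higher by 0.59 at 24 h (adjusted p = 0.00028), for Xrn2 by 0.44 (adjusted p = 0.0015), and for Epn2, 2 of the others were higher, by 0.30 and 0.38. At 48 h the 12 belonged to 11 genes, of which Lipa had a used probe set called lower. The probe sets of these genes thus gave opposite calls in the same mice. For 23 of the 75 genes another probe set, 29 in all, was also at -0.5 or lower at both late times.

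Among the genes with a second low probe set were Malat1, Zbtb16, Hsp90aa1, Hsph1, Far1, Sntb2, Alcam and Zfp800. Another probe set of Zfp800 was at -2.68 at 96 h and -2.75 at 168 h, and 1 of those of Malat1 at -2.44 and -1.75. For other genes a second probe set was near 0. That of Pdap1 was at 0.05 and -0.14 at the late times, beside -0.92 and -1.14 for the probe set used, and that of Gjc1 at -0.16 and 0.00, beside -1.16 and -1.02. Of the other probe sets of Chd4, 1 was at -1.0 and -0.94 and another at 0.22 and 0.07, and the last was higher at 24 h (by 0.40, limma adjusted p = 0.0095) and 48 h (by 0.48, adjusted p = 0.0044). The 3 others of Gatad2b that were counted lay between -0.19 and 0.17, and that of Cldn18 was at -0.02 and -0.15. The only other probe set of Layn had a mean of 5.53 and was not counted. It was at 0.24 and -0.03 at the late times, so the late difference of Layn also rests on 1 probe set. For Pdap1, Gjc1, Gatad2b and Cldn18 the late difference is therefore that of 1 probe set and was not seen at the others of the gene, and which transcript ends these probe sets read was not tested. The same holds for their calls at 6, 24 and 48 h. The other probe set of Pdap1 was at -0.03, 0.10 and 0.07 at these times (limma adjusted p = 0.95, 0.32 and 0.61), that of Gjc1 at -0.22 at 24 h (adjusted p = 0.1) and -0.09 at 48 h, though lower at 0 h (-0.33, adjusted p = 0.04), that of Cldn18 at -0.01 at 24 h, and the 3 counted of Gatad2b between -0.01 and 0.07 at 6 h and between -0.13 and -0.01 at 24 h. The probe set used for Gjc1 carries the x_at suffix, with which the maker marks probes that may also match other transcripts, and such probe sets made up 1.79% of the members and 4.48% of genes with a mean of at least 6.

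**Figure D4:**
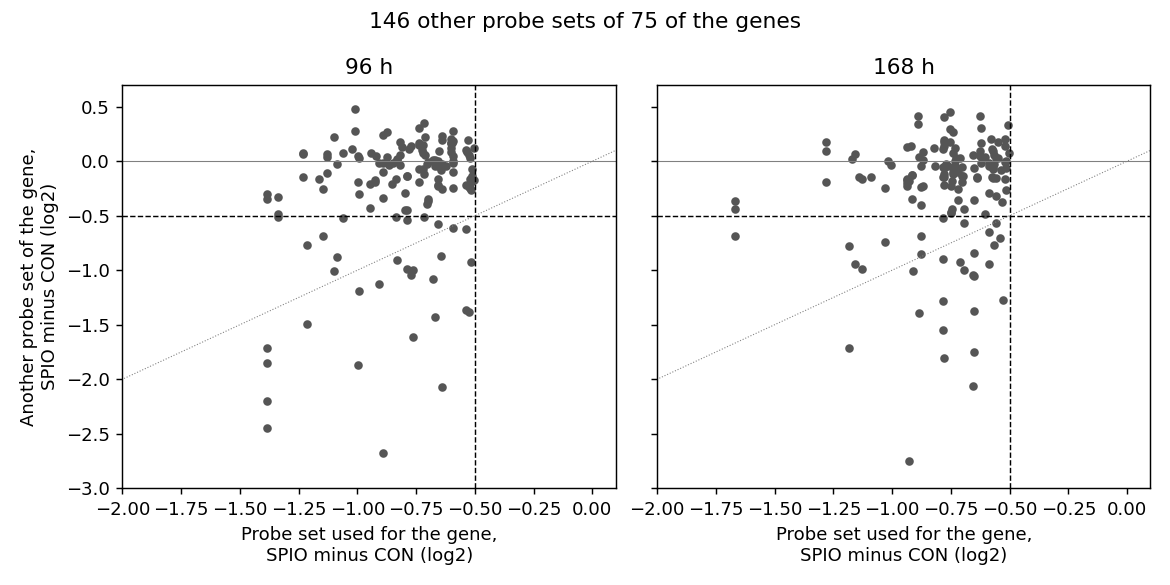
SPIO minus CON difference (log2) at 96 h (left) and 168 h (right) of the probe set used for a gene (horizontal axis) and of each of 146 other probe sets of 75 of the genes (vertical axis). Dashed lines mark -0.5 and the dotted line equal values. Most other probe sets lie near 0, with medians of -0.10 and -0.13, and 29 of 23 genes are at -0.5 or lower at both times.

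A measure of RNA integrity moved with the late differences. Control probe sets at the 3′ and 5′ ends of Actb give a log2 3′ minus 5′ value per array, which grows with degraded RNA or short labelled copies. At 96 h it was 0.788, 0.787, 1.31, 0.811 and 0.875 in SPIO lungs, against 0.558, 0.692, 0.559, 0.581 and 0.657 in CON lungs. At 168 h it was 0.966, 0.829, 0.782, 0.956 and 0.825 in SPIO, against 0.670, 0.659, 0.643, 0.565 and 0.699 in CON. The groups did not overlap at 6, 48, 96 or 168 h, with mean differences of 0.213, 0.187, 0.305 and 0.225, and they overlapped at 0 and 24 h. The like value for Gapdh did not overlap at 6 h only. The lungs with the lowest members, SPIO 96 h replicate 3 (members at 7.79) and SPIO 168 h replicate 1 (7.82), had Actb values of 1.31 and 0.966, while SPIO 6 h replicate 1 (7.88) had 0.788. The lowest lungs at 24 h, SPIO replicate 5 (7.95) and SPIO replicate 3 (8.13), had 0.945 and 0.796. The first of these had the highest Actb value of the 24 h arrays.

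With the Actb value as a covariate, a setting added after the data had been seen, the members' medians were -0.24, -0.37, -0.51, -0.19, -0.56 and -0.58 at 0, 6, 24, 48, 96 and 168 h. The calls lower were then 8, 4, 58 and 15 at 0, 6, 24 and 48 h, of 226, 19, 667 and 336 over all 18193 genes, and 62 and 70 of the 112 genes stayed at -0.5 or lower at 96 and 168 h. Within groups the members' correlation with the Actb value had a median of -0.0845 over 40 arrays, beside -0.0409 over genes with a mean of at least 6. The part of RNA integrity in the differences cannot be told apart from that of the exposure at 6, 48, 96 and 168 h. At these times the groups did not overlap in the Actb value.

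**Figure D5:**
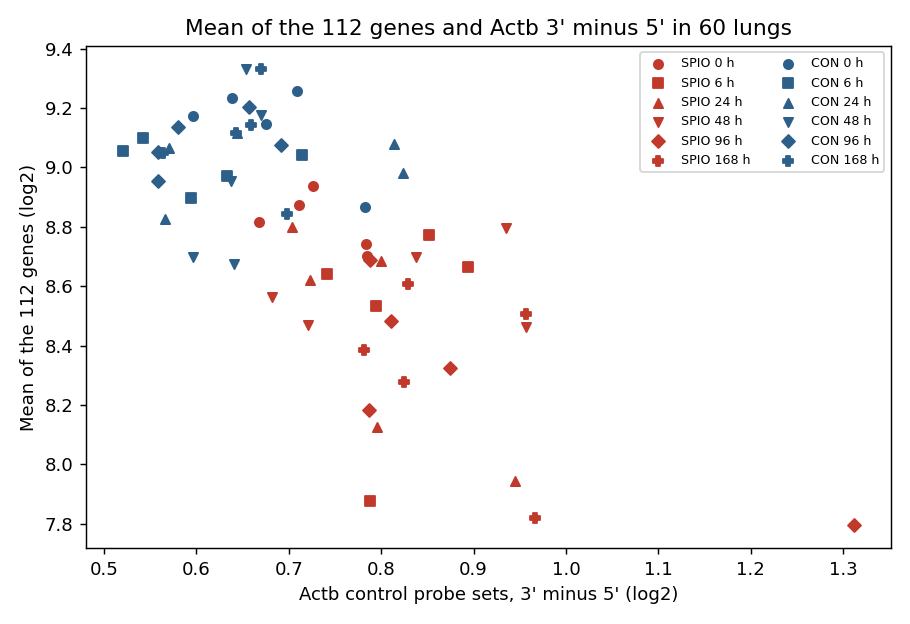
Mean log2 level of the 112 genes (vertical axis) and log2 3′ minus 5′ value of the Actb control probe sets (horizontal axis) in 60 lungs, SPIO in red and CON in blue, with a symbol per time. Most SPIO lungs lie lower and farther right than most CON lungs, and SPIO 96 h replicate 3, at 1.31 and 7.79, is the farthest to the right.

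None of the 112 genes was on the cell type marker lists. At 96 h the B cell list (7 of 8 measured) averaged 6.58 to 7.12 in SPIO lungs and 5.64 to 6.71 in CON lungs, and the T cell list (7 of 10) 7.0 to 7.09 in SPIO and 6.31 to 7.05 in CON. At 168 h these were 5.91 to 6.63 in SPIO and 4.92 to 6.81 in CON for B cells, and 6.63 to 7.20 in SPIO and 6.01 to 6.90 in CON for T cells. The neutrophil list (7 of 8) had a median difference of 0.51 at 96 h and -0.08 at 168 h, and that of mesothelium (6 of 6) one of 0.33 and -0.61. At the earlier times B cell genes had a median of 1.02 with 5 of 7 called higher at 0 h, and 0.71 with 3 higher at 24 h. The T cell medians were 0.57 with 2 higher at 0 h and 0.45 with 3 higher at 24 h. For macrophages and monocytes (9 of 10) the median was 0.36 with 5 higher at 24 h, and 0.20 and -0.16 at 96 and 168 h. Neutrophil genes were at 0.53 with 1 higher at 24 h and 0.93 with 2 higher at 48 h. Of all genes tested, 2.56%, 20.3% and 10.7% were called higher at 0, 24 and 48 h, beside which these counts are to be read. No gene of these 4 lists was called lower at 0, 6, 24 or 48 h, against 1.11%, 0.407%, 3.66% and 1.89% of all genes. The median difference at 96 and 168 h was 0.06 and -0.04 for alveolar type 1 cells (8 genes), -0.07 and 0.07 for endothelium (8), -0.05 and 0.01 for pericytes and smooth muscle (11), and -0.16 and -0.05 for fibroblasts (8). The part of these lists in the differences of the 112 genes was not tested.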

How the data were processed

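RNA of the right diaphragmatic lobe of 60 mice had been hybridised to Affymetrix Mouse Genome arrays, 1 per mouse. Deposited values are log2 expression from RMA, run by the authors, a method that subtracts background, makes array distributions equal by quantiles and combines probes into 1 value per probe set. Its version is not given in the sources used. Each of the 60 columns matched 1 mouse by its label. RMA makes array distributions alike, so differences are relative to the other transcripts of a lung, and dim genes have compressed ratios. Of 45101 probe sets, 64 controls were left out of the tests and 34945 had 1 gene symbol in the platform annotation (932 had several and 9160 none). Precision is limited by 5 mice per group.

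SPIO minus CON differences were fitted with limma 3.58.1 in R 4.3.3, with all 12 groups in 1 fit and 48 residual degrees of freedom, two-sided, and adjusted by Benjamini-Hochberg over the 18193 genes (threshold 0.05). The residual variance is shared over all times. Every member was to be named, with all late values for Gjc1, Layn, Pdap1 and the 6 with the most negative late mean, and with tests for at most 6 members of smallest p per time. Further values of members were printed to describe the role groups. The members, the gene lists, the motifs and the rule were chosen with earlier results of these data known. The fit was tested on simulated data. Alternatives were all probe sets, genes with a mean of at least 6, averaged probe sets, renewed quantile normalization, median centring, fits of single times, array weights, moderation with a trend and robustly, the test of the study's methods (unequal variances with Tukey's HSD), a replicate block, a fold minimum of 1.5, other limits of the rule and leaving out each array. The equal replicate numbers of SPIO and CON mice name different animals and were not used to pair them. Hybridisation batches and dates are not given here, and batch was not tested. Python 3.11.15 with matplotlib 3.10.9 made the figures.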

Additional observations from a re-analysis of the deposited data

Results flagged for a closer look

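Of 72 groups of 5 lungs checked, 8 held a lung far from the others of its group by Dixon's test, which chance gives in about 1 of 20 groups. The lowest lungs were Gjc1 in SPIO 96 h replicate 3 (7.93, the next 8.83) and in SPIO 168 h replicate 1 (8.16, the next 8.85), Layn in SPIO 96 h replicate 3 (5.54, the next 6.08), Veph1 in CON 168 h replicate 5 (6.46, the next 7.41), and the mean of the 112 genes in SPIO 6 h replicate 1 (7.88, the next 8.53) and in CON 0 h replicate 5 (8.87, the next 9.15). The highest were the Actb 3′ minus 5′ value of SPIO 96 h replicate 3 (1.31, the next 0.875) and the Gapdh value of SPIO 24 h replicate 5 (0.683, the next 0.414).

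The effect of SPIO at a later time differed from that at 0 h for 2 of the genes, Klhl29 at 6 h (by 1.78) and Far1 at 24 h (by -1.09), by the interaction test of the limma fit. This was 1 of the 112 genes at each time, against 0.885% of all genes at 6 h and 1.18% at 24 h, and both calls were lost with the replicate block.

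Outside the expression values of the genes, the Actb 3′ minus 5′ value was higher in every SPIO lung than in every CON lung at 6 h (mean difference 0.213), 48 h (0.187), 96 h (0.305) and 168 h (0.225), and the Gapdh value at 6 h (0.231). Its part in the differences of the 112 genes was not tested beyond the covariate given above.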

How the results depend on the processing

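The members' median kept its sign at 0, 6, 24 and 48 h in the settings run for it. These were renewed quantile normalization, median centring, group medians, the Actb covariate and leaving out each array. The median was also negative at both late times in these settings. The members were chosen to be lower at the late times, so the sign there is no test. Called lower at 6 h were 41 members with all probe sets, 41 with genes of mean 6 or more, 43 after quantile normalization, 13 with each time alone and 4 with the Actb covariate (added after seeing the data), against 27. At 0 h they were 4 with each time alone and 22 with array weights, against 9. At 24 h they were 48 with each time alone and 42 by the methods' test, against 73, and at 48 h 15 with the covariate, 13 by the methods' test and 16 with a 1.5-fold minimum, against 29. Called higher were 0 at 0 h with each time alone and by the methods' test, 1 at 6 h with each time alone, 0 at 24 h with all probe sets and by the methods' test, and 1 at 48 h with genes of mean 6 or more, array weights or the covariate. Interactions numbered 5 at 6 h with array weights, 0 at 24 h with all probe sets, quantile normalization or the covariate and 2 with the mean of probe sets, and at 48 h 3 with array weights and 1 with genes of mean 6 or more or the covariate. With the replicate block, 7, 32, 72 and 28 members were lower at 0, 6, 24 and 48 h, and interactions were 0 at 6 h and 0 at 24 h. Same-numbered mice correlated between -0.508 and 0.466 over 30 pairs, with 7 over 0.1 and 4 mice closest to their own number, so equal numbers were not taken to pair mice. The cause of these changes was not tested. The rule gave 184 genes at a limit of -0.4 and 71 at -0.6, and averaging the probe sets of a gene gave 128, of which 41 were among the 112. Renewed quantile normalization gave 86, all among the 112. Median centring gave 100, of which 99 were among the 112, and group medians gave 119, of which 85 were.

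Leaving out 1 array, the rule gave 83 to 133 genes (83 without SPIO 168 h replicate 1, 87 without SPIO 96 h replicate 3), and 61 of the 112 met it each time. Called lower were 5 to 13 members at 0 h (5 without CON replicate 3 or 4 or SPIO replicate 3 or 5), 12 to 35 at 6 h (12 without SPIO replicate 1, 14 without CON replicate 2), 51 to 79 at 24 h and 13 to 28 at 48 h (13 without CON replicate 4, 18 or 19 without CON replicate 2 or 5 or SPIO replicate 1 or 5). Called higher were 0 to 1 at 0 h, 0 at 6 h, 0 to 1 at 24 h and 0 to 1 at 48 h, and interactions were 0 to 2 at 6 h, 0 to 1 at 24 h and 0 to 1 at 48 h. Without replicate 2, 3 or 4 of CON or 3, 4 or 5 of SPIO at 0 h, and without replicate 2 to 5 of CON or 3 or 4 of SPIO at 24 h, 0 were higher. The interaction at 6 h was lost without CON 6 h replicate 2 or SPIO 0 h replicate 4, and that at 24 h without replicate 2 to 5 of CON 0 h, 3 to 5 of CON 24 h, 2 to 4 of SPIO 0 h or 2 to 5 of SPIO 24 h. Medians were -0.386 to -0.251 at 0 h, -0.615 to -0.411 at 6 h, -0.667 to -0.466 at 24 h, -0.435 to -0.277 at 48 h, -0.85 to -0.644 at 96 h and -0.827 to -0.592 at 168 h. Of 704 repeats of 32 single-gene tests, 643 kept their call, 61 lost it and 0 changed sign.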
